A study of Homo sapiens with 12 samples.

Results

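The S100 proteins are small calcium-binding proteins, and transcripts of 10 of them were followed in BT474 cells through continuous lapatinib exposure. The 10 genes, S100A4, S100A6, S100A7, S100A8, S100A9, S100A10, S100A11, S100A14, S100A16 and S100P, were chosen by name from a table of 26485 genes, of which 21 are S100 genes. BT474 is an established HER2-amplified human breast cancer line, and lapatinib blocks the kinases of HER2 and EGFR. Each of the 4 groups held 3 RNA-seq libraries. Control is day 0, drug tolerant persister cells (DTP) are day 9, drug tolerant expanding persister cells (DTEP) are month 6 and lapatinib-resistant cells (LR) are month 9, with lapatinib at 1 µM renewed every 3 days. All 4 groups carry the genotype label WT and come from 1 cell line. The treatment label of the Control libraries also names lapatinib, and they were read here as untreated because their title gives day 0. The methods describe replicates as parallel plates and, in places, as technical, so n counts libraries and the p-values may measure technical spread only.

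S100 proteins form dimers through paired EF-hand domains, and on binding calcium most of them expose a surface that grips a partner protein such as an annexin, a myosin or a cytoskeletal linker. Several act outside the cell through receptors such as RAGE. Most of the genes lie in the epidermal differentiation complex on chromosome band 1q21, and several are known for altered expression in breast and other epithelial cancers. S100A10, also called p11, is the partner of annexin A2 and binds it without calcium. S100A8 and S100A9 together form calprotectin, which is abundant in neutrophils and monocytes.

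Levels below are the deposited normalised read counts, which are reads scaled to library size. A log2 change is a difference of means of log2(normalised read count + 1) from limma, and a gene was called when its Benjamini-Hochberg adjusted p was below 0.05 and its absolute log2 change was above 2. A fold is the ratio of the group means of the normalised read counts, so it is not the log2 change on another scale and differs from it where replicates spread or levels are near 1. Libraries held 16383363 to 25030482 reads, so that 1 read was worth 0.0412 to 0.0576 and a count of 0 allowed a level of up to 0.124 to 0.173, which covers counting error only. Replicates were closest in Control, with a median SD over genes of 0.07 on the log2 scale, and widest in DTEP, at 0.33. In bulk RNA, fewer cells expressing a gene and less RNA per cell cannot be told apart. Of the 12 genes that mark BT474 as a HER2-amplified luminal line, 7 were called lower in DTEP than in DTP, where 7.02% of all tested genes were called lower, led by PGR (log2 change -4.20), ESR1 (-4.05), GRB7 (-3.22), STARD3 (-3.02) and CDH1 (-2.79). The luminal factors FOXA1 and GATA3 went the other way, with log2 changes of 1.36 and 1.34 that passed the adjusted p but not the fold, and GATA3 was called higher in DTEP than in Control (2.59). The HER2 gene ERBB2 had a mean level of 6526 at day 0, 8545 in DTP, 1627 in DTEP and 1774 at month 9.

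Of the 10 members, 7 passed the filter of a level of at least 1 in at least 3 libraries, and S100A7, S100A8 and S100A9 did not. S100A10, S100A6, S100A4 and S100P were far lower in DTEP and LR than in Control, and were called. S100A14 and S100A16 were higher there but were not called, and S100A11 passed neither limit. The 150 bases upstream of the RefSeq start are shown for the 4 genes that were called lower and for the pair that was higher, because these members were lower or higher together in DTEP and LR. The sequences run 5′ to 3′ on the gene's strand in GRCh38.p14, and capitals mark CG dinucleotides, a choice made after the levels were known. For S100A16, which has more than 1 RefSeq start, the window is that of the outermost.
S100A10, chr1:151993860-151994009, minus strand: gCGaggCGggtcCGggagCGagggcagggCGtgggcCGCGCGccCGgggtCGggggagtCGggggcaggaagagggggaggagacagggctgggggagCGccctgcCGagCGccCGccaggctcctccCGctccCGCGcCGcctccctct
S100A6, chr1:153535992-153536141, minus strand: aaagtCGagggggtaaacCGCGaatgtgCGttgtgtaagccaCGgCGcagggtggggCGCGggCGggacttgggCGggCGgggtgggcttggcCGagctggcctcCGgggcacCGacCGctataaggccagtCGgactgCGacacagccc
S100A4, chr1:153545807-153545956, minus strand: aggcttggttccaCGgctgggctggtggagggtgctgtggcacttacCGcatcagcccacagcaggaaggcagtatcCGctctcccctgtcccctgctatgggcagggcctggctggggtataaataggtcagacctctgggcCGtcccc
S100P, chr4:6693728-6693877, plus strand: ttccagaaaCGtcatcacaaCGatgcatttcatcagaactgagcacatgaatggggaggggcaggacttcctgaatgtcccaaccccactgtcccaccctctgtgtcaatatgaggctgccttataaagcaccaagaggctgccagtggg
S100A14, chr1:153616326-153616475, minus strand: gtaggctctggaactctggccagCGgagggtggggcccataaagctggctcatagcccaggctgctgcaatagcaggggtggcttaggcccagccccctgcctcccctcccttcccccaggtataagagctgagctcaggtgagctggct
S100A16, chr1:153613138-153613287, minus strand: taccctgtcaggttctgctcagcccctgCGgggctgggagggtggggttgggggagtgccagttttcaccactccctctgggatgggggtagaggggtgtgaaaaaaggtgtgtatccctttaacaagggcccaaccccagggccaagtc

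All 10 members matched a RefSeq promoter entry. The 250 bases upstream of S100A10 and of S100A6 each held 24 CG dinucleotides, and 23.7% of 35116 promoters held at least as many. S100A4 held 7, S100P and S100A14 held 4 each and S100A16 held 1, the last a count that 14.7% of promoters did not exceed. The window of the other S100A16 start held 6, which 41.1% did not exceed, and which start these cells use was not tested. The members that fell thus ranged from 4 to 24, beside a median of 11 over all promoters. The counts of S100A4 and S100P were ones that 43.7% and 34.3% of promoters did not exceed. Of the motifs searched on both strands, AP-2 (GCCNNNGGC) matched in S100A6 and S100A7 and in 19.8% of all promoters, and C/EBP (TTGCNNAA) matched in S100A11 and in 9.05%. AP-1 (TGANTCA) and the interferon-stimulated response element matched in no member, against 6.57% and 3.02% of all promoters.

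**Figure D1:**
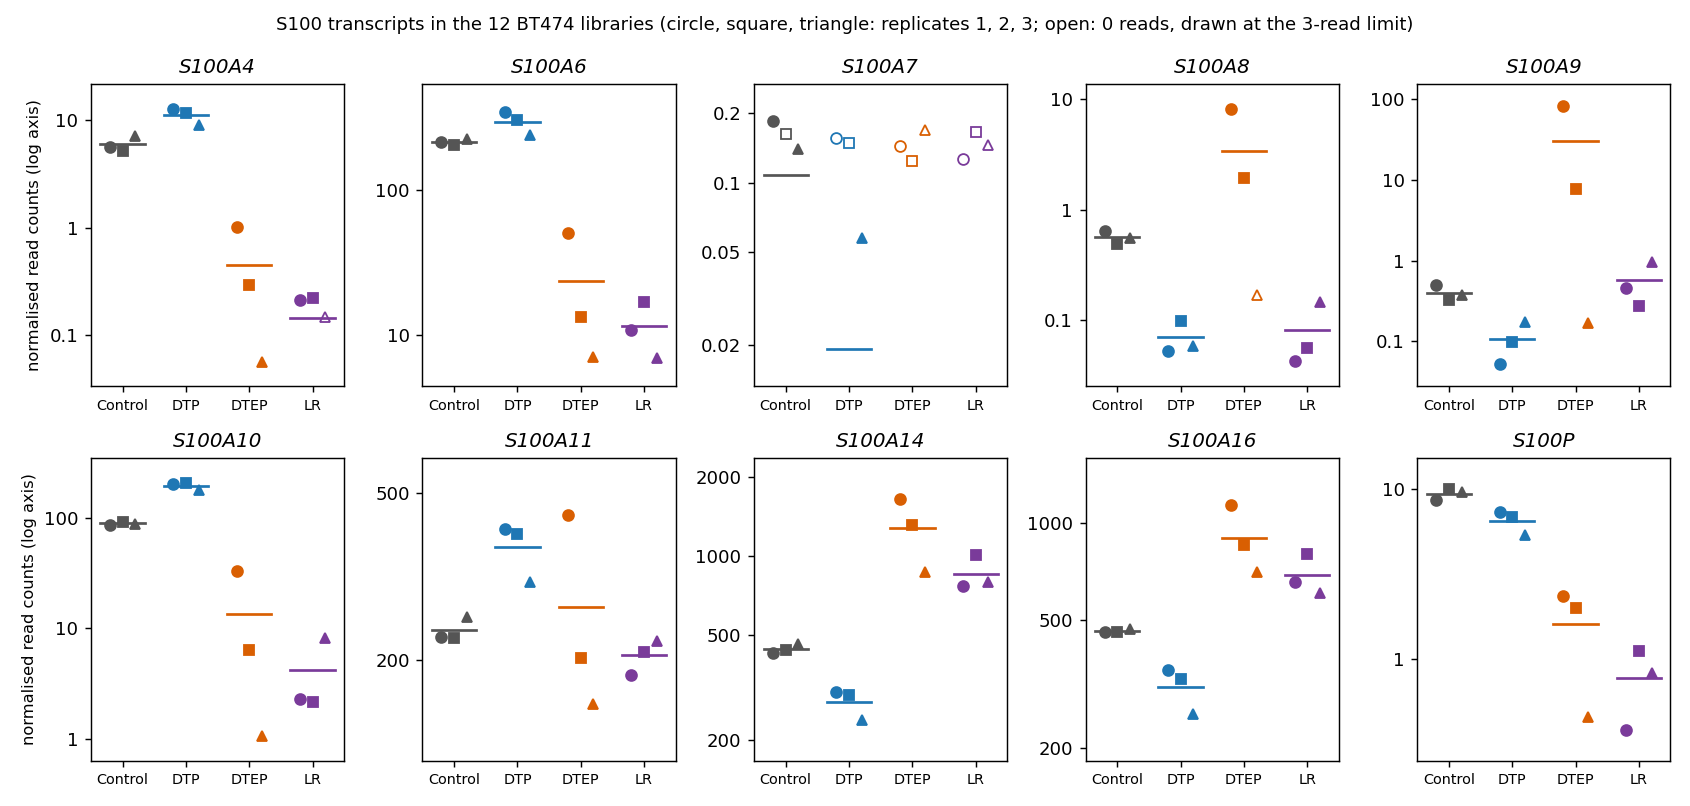
Normalised read counts (vertical, log axis, own range in each panel) of the 10 S100 genes in the 12 libraries by group. Symbols are replicates 1, 2 and 3, lines are group means and open symbols are 0 reads drawn at the 3-read limit. S100A10 and S100A6 drop from DTP to DTEP by 14.4-fold and 12.4-fold, or 52.8-fold and 28.9-fold without the high DTEP replicate 1, and S100A14 rises 4.59-fold.

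S100A10 (Entrez Gene 6281, chromosome 1 from 151982915 to 151993859, minus strand) was measured at 87.2, 92.5 and 88.5 in Control and at 204, 207 and 179 in DTP. In DTEP its levels were 33.4, 6.38 and 1.07, and in LR they were 2.28, 2.16 and 8.19. Every DTEP and LR library lay below every Control and DTP library, while DTEP and LR overlapped. S100A10 was 14.4-fold lower in DTEP than in DTP (log2 change -4.61, SE 0.75, limma adjusted p = 0.000161). Leaving out 1 library at a time moved that log2 change between -5.66 and -3.63, and without DTEP replicate 1 the fold was 52.8 against DTP and 24.0 against Control. Against Control it was 6.56-fold lower in DTEP (log2 change -3.49, limma adjusted p = 0.00166) and 21.2-fold lower in LR (log2 change -4.31, limma adjusted p = 0.000325), the latter 40.3-fold without LR replicate 3. DTP lay above Control without overlap, but the log2 change of 1.13 did not pass when all 12 libraries shared the spread (limma adjusted p = 0.224) and passed when only those 6 libraries were fitted (limma adjusted p = 2.45e-05). The same kind of fit weakened the DTEP results, with limma adjusted p = 0.00212 against DTP and limma adjusted p = 0.0159 against Control.

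S100A6, or calcyclin (Entrez Gene 6277, chromosome 1 from 153534599 to 153535991, minus strand), had levels of 212, 205 and 224 in Control and of 340, 301 and 237 in DTP. The DTEP libraries held 50.3, 13.3 and 7.02, and the LR libraries held 10.8, 17.0 and 6.98. DTEP was 12.4-fold below DTP (log2 change -4.01, SE 0.52, limma adjusted p = 2.48e-05), and LR was 18.4-fold below Control (log2 change -4.17, limma adjusted p = 2.1e-05). The order of means was DTP at 293 ± 52.3 (SD, n = 3), Control at 214 ± 9.86, DTEP at 23.5 ± 23.4 and LR at 11.6 ± 5.05. Without DTEP replicate 1 the fold of DTEP was 28.9 below DTP and 21.1 below Control, and with 1 library left out at a time the log2 change from DTP to DTEP lay between -4.76 and -3.42. LR against DTEP did not pass the test (limma adjusted p = 0.416), nor did DTP against Control (limma adjusted p = 0.498), which passed when only those 6 libraries were fitted (limma adjusted p = 0.0186).

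S100A4 (Entrez Gene 6275, chromosome 1 from 153543621 to 153545806, minus strand), which binds non-muscle myosin and is known from metastatic cells, had low levels. Its levels were 5.61, 5.22 and 7.13 in Control and 12.9, 11.6 and 9.10 in DTP. They were 1.00, 0.288 and 0.0561 in DTEP, from 21, 7 and 1 reads, and 0.211, 0.221 and 0 in LR, from 5, 4 and 0 reads. S100A4 was higher in DTP than in Control (log2 change 0.80, limma adjusted p = 0.0113), although below the fold required for a call, and adjusted p rose to 0.251 with a pseudocount of 0.1 in place of 1. The mean in DTEP was 24.9-fold below DTP (log2 change -3.11, limma adjusted p = 2.88e-07) and that in LR was 41.5-fold below Control (log2 change -2.61, limma adjusted p = 1.17e-06). Without DTEP replicate 1 the DTEP mean was 65.0-fold below DTP and 34.8-fold below Control, and without LR replicate 3 the LR mean was 27.7-fold below Control. S100A4 passed the filter through its Control and DTP levels.

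S100P (Entrez Gene 6286, plus strand), a ligand of RAGE and partner of ezrin, is the only one of the 10 off chromosome 1, on chromosome 4 from 6693878 to 6697170. Levels were 8.60, 10.0 and 9.60 in Control and 7.36, 6.86 and 5.36 in DTP. They were 2.34, 1.98 and 0.449 in DTEP and 0.380, 1.11 and 0.824 in LR. Unlike S100A4, its DTP libraries all lay below its Control libraries, with a log2 change of -0.47 that did not pass the test over all 12 libraries (limma adjusted p = 0.177) and passed over those 6 (limma adjusted p = 0.0151). S100P was called lower in DTEP than in Control (5.91-fold, log2 change -2.09, limma adjusted p = 5.12e-05) and in LR than in Control (12.2-fold, log2 change -2.57, limma adjusted p = 7.78e-06). The DTEP call was lost at -1.72 without DTEP replicate 3. Against DTP, the DTEP change of -1.62 (limma adjusted p = 0.000283) fell short of the fold required, while edgeR gave -2.07 and DESeq2 -2.16 on the recovered reads, and both called it.

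S100A14 (Entrez Gene 57402, chromosome 1 from 153614255 to 153616325, minus strand), an S100 protein of epithelial cells, went the other way. It was at 426, 439 and 464 in Control and at 303, 297 and 238 in DTP. Levels rose to 1656, 1318 and 873 in DTEP and were 768, 1010 and 796 in LR. All DTEP and LR libraries exceeded all Control libraries, which in turn exceeded all DTP libraries. The rise from DTP to DTEP was 4.59-fold (log2 change 2.15, SE 0.21, limma adjusted p = 3.02e-06) and was a call, which was lost at 1.95 without DTEP replicate 1. S100A14 also passed the adjusted p, but not the fold, when lower in DTP than in Control (log2 change -0.67, limma adjusted p = 0.0193) and higher in LR than in Control (1.94-fold, log2 change 0.94, limma adjusted p = 0.00219).

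S100A16 (Entrez Gene 140576, chromosome 1 from 153606883 to 153613137, minus strand) is the neighbour of S100A14, with a gap of 1117 bases between the gene models. Its levels were 459, 459 and 470 in Control and 349, 327 and 256 in DTP. They were 1133, 855 and 702 in DTEP and 657, 799 and 607 in LR. The groups stood in the same order as for S100A14. The log2 change was 1.51 from DTP to DTEP (2.89-fold, SE 0.19, limma adjusted p = 1.91e-05), 0.93 from Control to DTEP (limma adjusted p = 0.00114) and 0.56 from Control to LR (limma adjusted p = 0.0204), and none reached the fold required for a call.

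S100A11, the partner of annexin A1 (Entrez Gene 6282, chromosome 1 from 152032506 to 152037004, minus strand), was at 227, 226 and 253 in Control and at 411, 400 and 307 in DTP. DTEP libraries gave 444, 202 and 157, and LR libraries gave 185, 210 and 222. The DTEP range spanned all other groups. Over all 12 libraries, LR below DTP was the comparison that passed the adjusted p (log2 change -0.85, limma adjusted p = 0.0202). DTP against Control (0.65, limma adjusted p = 0.0781) passed when only those 6 libraries were fitted (limma adjusted p = 0.00223), and DTEP against DTP (-0.61, limma adjusted p = 0.0812) passed without DTEP replicate 1 (-1.05, limma adjusted p = 0.000144). DTEP against Control was 0.04 (limma adjusted p = 0.915) and turned to -0.40 without DTEP replicate 1. RefSeq lists 10 pseudogenes of S100A11, none of them in the table, so its level is uncertain to the extent that reads were shared.

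**Figure D2:**
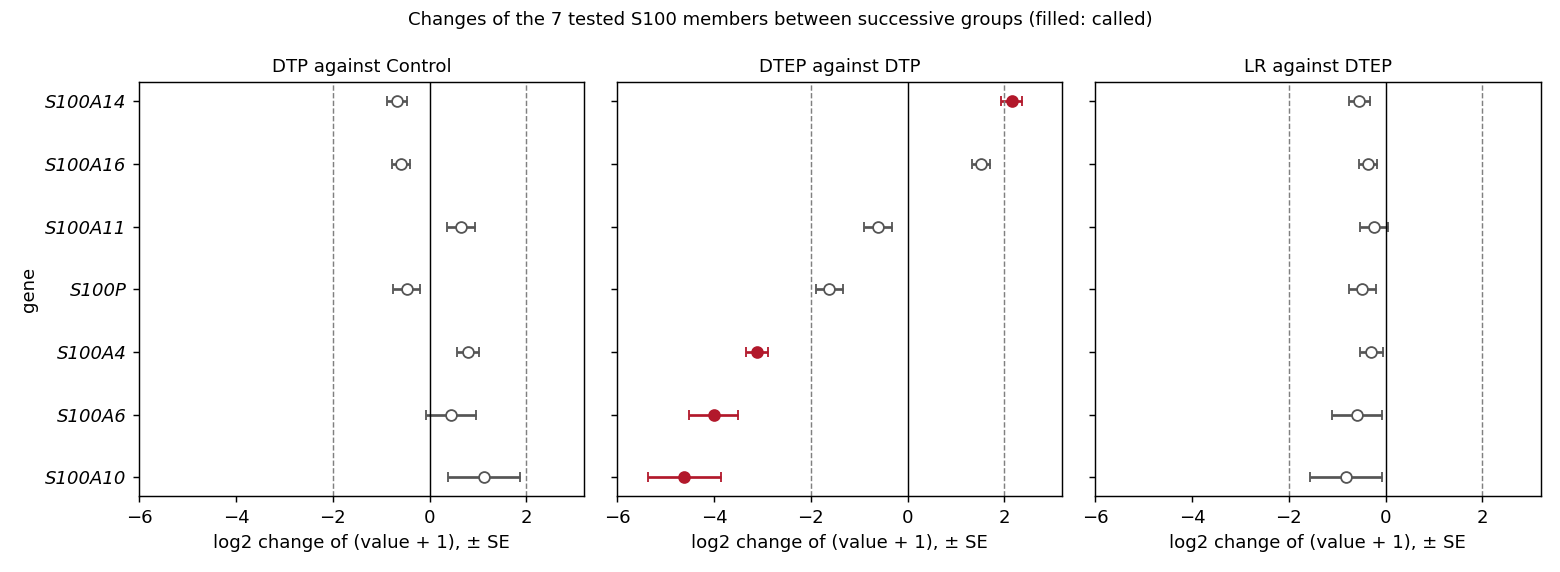
Log2 change from limma (horizontal, points with bars of 1 SE) of the 7 tested S100 genes between successive groups, filled where called, with dashed lines at the call limits of 2 in either direction. Calls appear only in DTEP against DTP, with S100A10, S100A6 and S100A4 lower at -4.61, -4.01 and -3.11 and S100A14 higher at 2.15.

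LR against DTP sets resistant cells beside persisters. S100A4 was 77.6-fold lower in LR (log2 change -3.41, limma adjusted p = 1.14e-07), S100A10 46.7-fold lower (-5.43, limma adjusted p = 3.77e-05) and S100A6 25.3-fold lower (-4.61, limma adjusted p = 6.71e-06). S100A10 was 88.5-fold lower without LR replicate 3. S100P was 8.47-fold lower (-2.10, limma adjusted p = 3.13e-05), a call lost at -1.93 without LR replicate 1, and S100A14 3.07-fold higher (1.61, limma adjusted p = 2.77e-05).

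Counted over the 7 tested members, DTP against Control gave 0 calls by limma, edgeR and DESeq2, with 4 at an unadjusted p below 0.05, and over all tested genes 1.01% were called higher and 3.9% lower. DTEP against DTP gave 1 higher (8.13% of all tested genes were called higher) and 3 lower (7.02% called lower). In LR against DTEP 0 were called by each of the 3 tools, with 1 at an unadjusted p below 0.05, and over all tested genes 0.225% were called higher and 0.457% lower. With 1 library left out at a time, the lowest limma adjusted p there was 0.00223 for S100A14, 0.005 for S100P and 0.0205 for S100A10. It was 0.025 for S100A16 and 0.0468 for S100A6, while S100A4 and S100A11 never passed. No change reached the fold required. The other comparisons each gave 0 higher and 4 lower. The share of all tested genes called lower was 6.2% in DTEP against Control, 7.8% in LR against Control and 8.42% in LR against DTP, and the shares called higher were 4.43%, 5.03% and 9.46%. With all libraries the 4 were S100A4, S100A6, S100A10 and S100P each time. DESeq2 gave no adjusted p for S100A10 and called the other 3. The groups did not overlap in 7 of the 7 members in DTP against Control (77.3% of all tested genes), 6 in DTEP against DTP (67.3%) and 0 when LR was set against DTEP (22.5%). They did not overlap in 6 in DTEP against Control (65.6%), 7 in LR against Control (77%) and 7 in LR against DTP (76.5%), so this count alone was near that of all genes. The median log2 change of the tested members was -1.62 in DTEP against DTP, beside 0.08 over all tested genes, and -2.57 in LR against Control, beside -0.03. These medians describe the chosen members, which moved in both directions, and not the S100 family. The 2 other tested S100 genes, S100A13 and S100A1, were at 0.31 and 1.46 in DTEP against DTP. In LR against Control they were at 0.58 and -0.18. The comparisons share groups, and the filter left 3 members out of them.

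S100A8 and S100A9 had reads mainly in the DTEP libraries, and there mainly in replicate 1. S100A9 (Entrez Gene 6280, chromosome 1 from 153357854 to 153361023, plus strand) stood at 82.2, 7.66 and 0.168 in DTEP replicates 1, 2 and 3, from 1719, 186 and 3 reads. Elsewhere it ranged between 0.326 and 0.506 (Control), 0.0522 and 0.173 (DTP) and 0.277 and 0.969 (LR). S100A8 (Entrez Gene 6279, chromosome 1 from 153390032 to 153422583, minus strand) was at 8.23, 1.94 and 0 in DTEP, from 172, 47 and 0 reads, against at most 0.644 in any other library. The DTEP libraries therefore ranged from above to below the Control libraries for both genes. Fitted with no filter, S100A9 was higher in DTEP than in DTP (log2 change 3.09, limma adjusted p = 0.0314), and the call was lost without DTEP replicate 1 (1.52, limma adjusted p = 0.0655). For S100A8 the same comparison gave 1.49 (limma adjusted p = 0.0433) and 0.68 without that library (limma adjusted p = 0.114).

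Because both genes mark myeloid cells, 18 leukocyte markers were read in the same libraries. Their summed level ranged between 1.58 and 2.28 (Control), 3.86 and 5.78 (DTP), 1.96 and 11.2 (DTEP) and 0.719 and 2.03 (LR). TYROBP and AIF1 were at 0 in all 12 libraries, and PTPRC, which encodes CD45, was at 0 in all DTEP and LR libraries. CSF3R, the receptor for granulocyte colony-stimulating factor and named after its values were seen, was at 9.57 in DTEP replicate 1 and at 1.69 and 1.35 in replicates 2 and 3. The part of these markers in the S100A8 and S100A9 levels was not tested. Of the 18 markers only 2 passed the filter, CSF3R and LYZ, which encodes lysozyme, so the others were not tested. LYZ was the only call, lower in LR than in DTP (log2 change -2.04, limma adjusted p = 1.41e-05), where 8.42% of all tested genes were called lower. Most of the summed level was LYZ in DTP, at 3.22 to 4.79, and CSF3R in DTEP replicate 1.

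S100A7, or psoriasin (Entrez Gene 6278, chromosome 1 from 153457744 to 153460651, minus strand), had 8 reads in all, with 4, 0 and 3 in Control and 1 in DTP replicate 3. With so few reads, 1 Control library at 0 overlapped DTEP and LR. Fitted with no filter, the log2 change against Control was -0.14 in DTEP (limma adjusted p = 0.0405) and -0.14 in LR (limma adjusted p = 0.0373). Its near-identical copy S100A7A had 0 reads in all libraries.

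The spread within DTEP had the same order in nearly every member. Replicate 1 was highest and replicate 3 lowest in 9 of the 9 members with a DTEP read and in 7 of the 7 tested, whereas 33.8% of all tested genes had that order. It held for members that fell, such as S100A10 at 33.4 and 1.07, and for those that rose, such as S100A14 at 1656 and 873. Without DTEP replicate 1, the small differences of S100A6, S100A10 and S100A11 between LR and DTEP changed sign.

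Dividing each level by transcript length allowed members to be compared with each other. In Control the mean level per kb was 492 for S100A6, 420 for S100A14, 418 for S100A11, 395 for S100A16 and 133 for S100A10, and S100A4 was at 11.7. Shares below are of the level per kb summed over the 10 members. S100A14 and S100A16 together made between 42.6 and 43.6% in Control and between 24.0 and 24.3% in DTP. Their share was between 69.3 and 82.7% in DTEP and between 74.9 and 79.7% in LR. S100A4, S100A6 and S100A10 together made 33.5 to 34.0%, 44.3 to 45.5%, 1.04 to 4.58% and 1.66 to 2.08% in the same order. S100A13, which is not a member, averaged 58.7 in Control and 127 in DTEP before length scaling and was left out of the sum. The summed level itself overlapped between groups, with ranges of 1849 to 1976 (Control), 1832 to 2445 (DTP), 1726 to 3662 (DTEP) and 1648 to 2058 (LR). The makeup of the 10 transcripts was thus led by S100A14 and S100A16 in DTEP and LR, and these shares do not depend on the scaling between libraries.

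**Figure D3:**
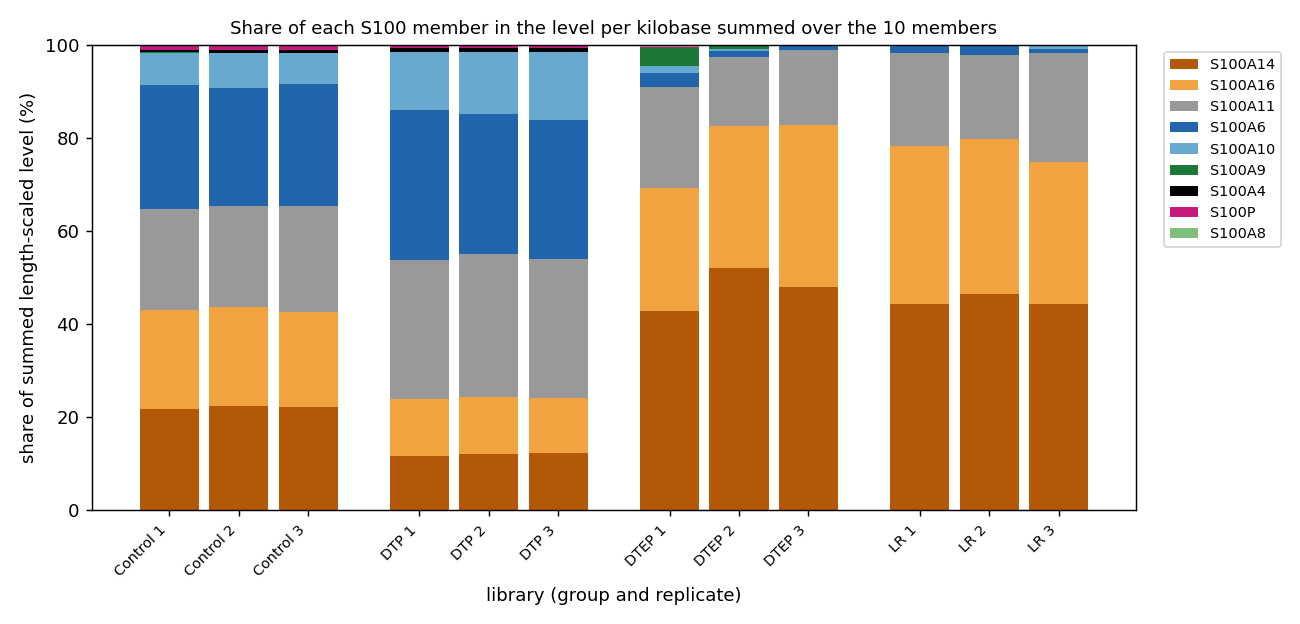
Share (percent) of each S100 gene in the summed level per kb of transcript, 1 bar for each of the 12 libraries, from 0 to 100. S100A7 is too low to be seen. S100A14 and S100A16 together fill 24.0 to 24.3% of the DTP bars and 69.3 to 82.7% of the DTEP bars.

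Of the 11 other S100 genes in the table, 2 passed the filter and 0 were called in any comparison by limma. S100A13 was at 58.0, 57.0 and 61.0 in Control, 108, 105 and 84.7 in DTP, 171, 119 and 91.3 in DTEP and 80.1, 100 and 86.3 in LR. It was higher than Control in DTP (log2 change 0.74, limma adjusted p = 0.00738) and in DTEP (log2 change 1.05, limma adjusted p = 0.000633). S100A1 averaged 0.782 at day 0, 0.144 in DTP, 2.39 in DTEP and 0.566 at month 9, and was higher in DTEP than in DTP (log2 change 1.46, limma adjusted p = 0.000316). S100A1 entered the test through DTEP, where it reached 1 in every library, so a difference there was built in. Its exons overlap those of S100A13 on the other strand, and counting ignored strand, so reads within the overlap cannot be told apart.

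Partner proteins and receptors of S100 proteins made a list of 21 genes, of which 16 passed the filter. None was called in DTP against Control or in LR against DTEP by limma, and 0 were called higher and 2 lower in each of the other comparisons. Over all tested genes 4.43 to 9.46% were called higher and 6.2 to 8.42% lower in those other comparisons. ANXA1, which encodes annexin A1, the partner of S100A11, averaged 57.3 at day 0, 39.7 in DTP and 1.67 in DTEP and ranged from 0.0553 to 0.291 at month 9, and fell by 4.10 on the log2 scale from DTP to DTEP (limma adjusted p = 4.78e-07). MCAM, a cell adhesion receptor, had a log2 change of -3.04 in that comparison (limma adjusted p = 1.68e-06). ANXA2, whose protein binds S100A10, was at 255, 262 and 260 in Control, 620, 621 and 537 in DTP, 480, 81.6 and 98.3 in DTEP and 118, 120 and 279 in LR. ANXA2 was lower in DTEP than in DTP (log2 change -1.91, limma adjusted p = 0.00696) but was not a call, and the high DTEP library was replicate 1, as for S100A10. The list's median log2 change was -0.21 for DTEP against DTP, and for LR against Control it was -0.23.

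Along 1q21 the members did not move as a block. S100A6 and S100A4, which fell, are next in order to S100A16 and S100A14 among the members, and the latter rose. The 69 other genes from the table between the outermost S100 genes of 1q21 or within 250 kb outside them included 14 that passed the filter. Among those called in DTEP against DTP, OAZ3, an antizyme of polyamine metabolism, was higher (log2 change 2.99, limma adjusted p = 3.35e-07) and THEM4, a thioesterase, was lower (log2 change -2.52, limma adjusted p = 1.23e-05). In LR against Control 1 was higher, again OAZ3, and 1 lower, TCHH, which encodes trichohyalin (log2 change -2.22, limma adjusted p = 6.59e-07). Over all tested genes 5.03% were called higher and 7.8% lower in that comparison.

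**Figure D4:**
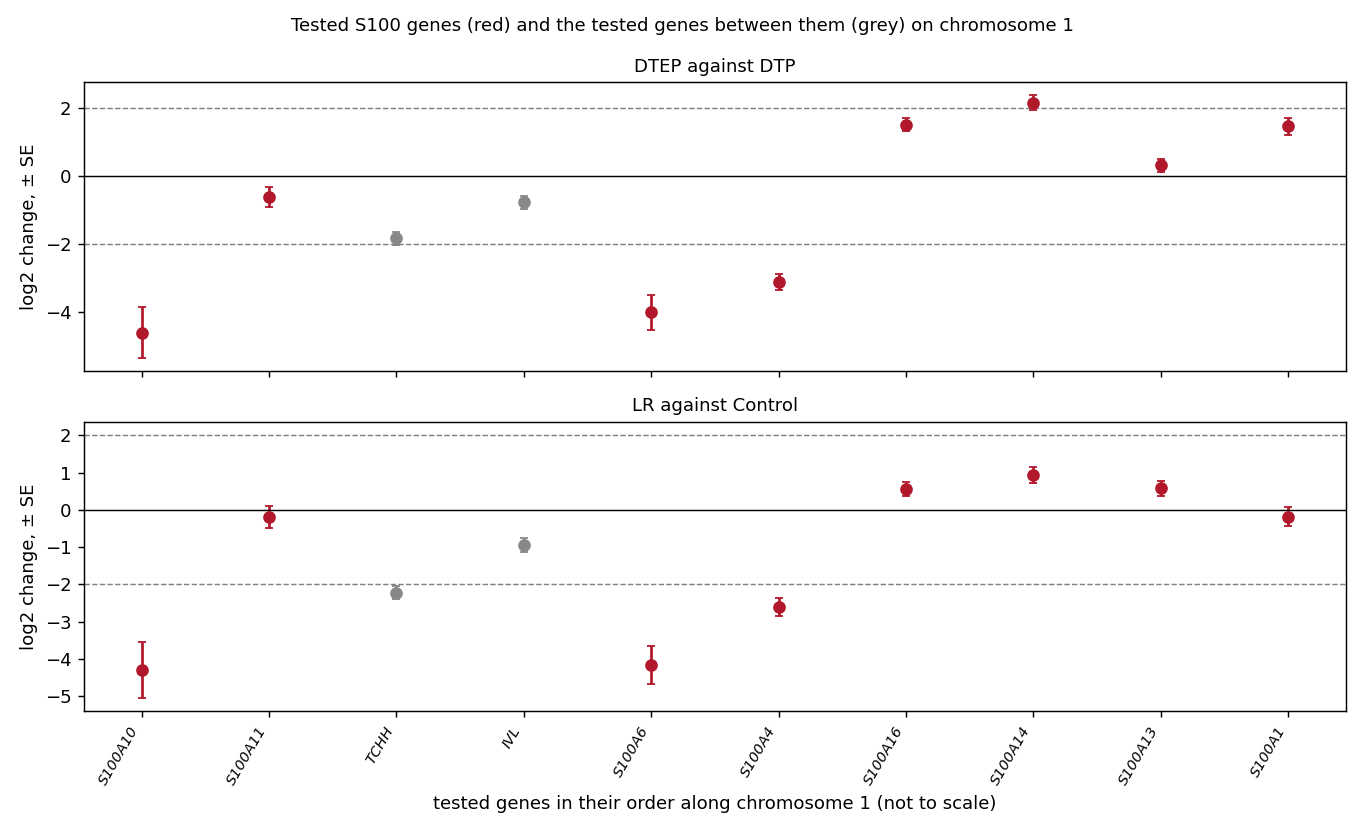
Log2 change from limma (vertical, bars of 1 SE) of the tested genes from the first to the last S100 gene of 1q21 in their order along chromosome 1 (horizontal, not to scale), for DTEP against DTP above and LR against Control below, with S100 genes in red, other genes in grey and dashed lines at the call limits. S100A6 and S100A4 at -4.01 and -3.11 in DTEP against DTP stand beside S100A16 and S100A14 at 1.51 and 2.15.

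The epidermal differentiation complex list of 44 genes had 43 in the table, of which 2 passed the filter, and TCHH was its only call. Of 25 squamous differentiation genes outside 1q21, 10 passed the filter, and in DTEP against DTP 2 were called higher and 2 lower. Over all tested genes 8.13% were called higher and 7.02% lower in that comparison. CALML5, a skin calmodulin-like protein, averaged 0.425 in DTP and 59.6 in DTEP (log2 change 5.37, limma adjusted p = 4.32e-09), and TP63, which encodes p63, averaged 0.785 and 15.2 (log2 change 2.94, limma adjusted p = 0.000331). KRT4, a mucosal keratin, and TGM1, a transglutaminase of the cornified envelope, were lower (log2 changes -4.25 and -2.53). In LR against Control 2 were called higher, again CALML5 and TP63, and 3 lower, KRT4 (-3.23), the desmosomal cadherin DSC2 (-2.38) and the transglutaminase TGM3 (-2.05). The shares of all tested genes called there were 5.03% higher and 7.8% lower. TGM3 passed the filter only through its Control levels of 3.08 to 3.42, with at most 0.288 elsewhere, so a fall from Control was built in. CALML5 and TP63 against KRT4 and DSC2 still moved in both directions.

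For each member called at least once, the tested gene with the most similar profile was the one with the smallest root-mean-square difference in centred log2 levels over the 12 libraries. S100A4 was closest to BEX5 (0.142), S100A6 to C19orf33 (0.234) and S100A10 to MISP (0.277). S100A14 was closest to GLRX2 (0.156) and S100P to AREG (0.199), which encodes the EGFR ligand amphiregulin. AREG averaged 10.8 at day 0, 7.44 in DTP, 1.71 in DTEP and 1.39 at month 9.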

How the data were processed

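For BT474 cells, 12 stranded mRNA libraries were sequenced, aligned by the authors with Rsubread to hg38 and assigned to RefSeq genes with default settings, which ignore strand. The deposited signal values are normalised read counts, which the authors scaled with edgeR, and dividing by each library's value of 1 read gave whole reads for 100% of 199680 values above 0 (tolerance 1e-06).

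Groups came from the sample titles. Levels were tested with limma 3.58.1 in R 4.3.3 on log2(value + 1) over all 12 libraries, with a trend, after a filter that kept the 13794 of 26485 genes that reached 1 in 3 or more libraries. P-values were two-sided and adjusted by Benjamini-Hochberg within each of 6 comparisons, and a call needed both an adjusted p under 0.05 and a log2 change beyond 2 in size. edgeR 4.0.16 and DESeq2 1.42.0 on the recovered reads, other pseudocounts, filters and scalings, a replicate block and leaving out each library were the alternatives.

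On simulated reads for DTP against Control, with 200 of 13382 genes changed 8-fold, each tool recovered 200 and made 0 false calls. The changed genes were drawn from those above the median level, the changes lay beyond the call limit, and all genes and groups had the same spread. The simulation thus checked the code only, and cannot show how the calls fare at the wider spread of DTEP and LR.

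The members, lists and tests were chosen with earlier results of these data known. All 10 members were named. A listed gene was named when it was called in at least 1 comparison, at most 4 a list and comparison, and other S100 genes freely. ANXA2, CSF3R, PTPRC, TYROBP, AIF1, ERBB2, FOXA1 and GATA3 were named outside that rule for their roles or values. Length scaling used MANE Select transcripts of GENCODE 44, and gene positions and promoters were from RefSeq, GRCh38.p14. A result for a gene near the cluster is not reported here.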

Additional observations from a re-analysis of the deposited data

How the results depend on the processing

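Of 910 recomputed log2 changes, 898 kept their direction and their side of the call. Many of these could change only in adjusted p. Leaving out a library of neither group, or altering only the filter, the trend, the block or the libraries fitted, leaves the log2 change as it was. The count therefore overstates how firm the changes are. With a filter at a mean of at least 5, S100A4 and S100P were not tested, and the members called fell from 4 to 2 in LR against Control and to 2 in LR against DTP. With 1 library left out, LR against DTEP ran from -1.18 to 0.16 for S100A6, from -1.80 to 0.23 for S100A10 and from -0.54 to 0.20 for S100A11, the lowest without DTEP replicate 3 and the highest without DTEP replicate 1. S100A11 in DTEP against Control ran from -0.40 without DTEP replicate 1 to 0.35 without DTEP replicate 3, and was -0.021 with median-of-ratios scaling. The cause was not tested. S100A14 in DTEP against DTP was 1.95 without DTEP replicate 1. When only the 6 libraries compared were fitted, the members called in DTEP against DTP stayed called with a higher limma adjusted p. It was 6.86e-05 for S100A4, 0.000704 for S100A6, 0.00212 for S100A10 and 0.000283 for S100A14. S100P lost its call in DTEP against Control without DTEP replicate 3 (-1.72) and in LR against DTP without LR replicate 1 (-1.93), and gained one in DTEP against DTP with a pseudocount of 0.1 (-2.22). The log2 change of S100A4 depended on the pseudocount, moving from -3.11 in DTEP against DTP to -4.78 with 0.1. The fit without the filter and without DTEP replicate 1 was chosen after seeing the data.

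Equal replicate numbers did not pair the libraries. Deviations of same-numbered libraries correlated at -0.441 to 0.359, with 2 of 18 pairs above 0.1. With the replicate number as a block, members called stayed at 0 in DTP against Control and LR against DTEP and at 4 in the other comparisons.

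Depth limits S100A4 in DTEP and LR, S100P in DTEP replicate 3 and LR, and S100A7 throughout, each resting on few reads per library. It also limits S100A8 and S100A9 outside DTEP and in DTEP replicate 3.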
